A study of Mus musculus with 9 samples.

Results

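The genes examined here encode the machinery that releases neurotransmitter from synaptic vesicles in the mouse hippocampus. They are 8 of 54532 genes listed, chosen by name from their textbook roles with earlier results of these data known. The SNARE genes are Snap25, Stx1a and Vamp2, the calcium sensor gene is Syt1 and the priming gene is Unc13a. The synapsin genes are Syn1 and Syn2, and the vesicle membrane gene is Syp. The 9 samples were hippocampus of male C57BL/6 mice, 3 per group, bought at 6 to 8 weeks of age and kept 2 to a cage. The study's methods, which describe no betaine group, instead name female mice 8 weeks old. Con animals ate a standard diet. HMD animals ate, over 8 weeks, a diet rich in methionine, the amino acid from whose breakdown homocysteine arises. Bet+HMD animals ate that diet for 8 weeks too and then, over 2 weeks, took betaine in drinking water at 2.5% (w/v). Betaine gives a methyl group to homocysteine and so turns it back into methionine. The diet eaten during those last weeks is not stated in the sources used here. No group had betaine with the standard diet or the 2 further weeks without betaine, so betaine and the added time cannot be told apart. Strain labels were C57BL/6, C57BL/7 and C57BL/8 for Bet+HMD replicates 1, 2 and 3, and all 9 libraries had the expression of Y-linked genes and the near absence of Xist that a male animal gives.

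Neurotransmitter is stored in vesicles that dock at the active zone of the presynaptic terminal. A vesicle SNARE (synaptobrevin 2, from Vamp2) and plasma membrane SNAREs (syntaxin 1A from Stx1a and SNAP-25 from Snap25) zip into a complex that pulls both membranes together. Munc13-1, from Unc13a, opens syntaxin and primes the vesicle, synaptotagmin 1, from Syt1, binds calcium and triggers fusion, synapsins hold a reserve pool of vesicles, and synaptophysin, from Syp, is a main protein of the vesicle membrane.

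The members that passed the test in both comparisons of the betaine group were Syn2, which fell, and Unc13a, which rose. The DNA in front of these genes is shown because they moved in opposite directions. It is the 250 bases before the RefSeq start, on build GRCm38.p6 and written 5′ to 3′ on the gene's own strand. Syn2 lies on the + strand at chr6:115134652-115134901 and Unc13a on the - strand at chr8:71671758-71672007, and both starts are those of the deposited gene positions. Capitals mark the GC box, the letters GGGCGG on either strand (CCGCCC when read in reverse), a sequence bound by Sp1-type factors.
Syn2: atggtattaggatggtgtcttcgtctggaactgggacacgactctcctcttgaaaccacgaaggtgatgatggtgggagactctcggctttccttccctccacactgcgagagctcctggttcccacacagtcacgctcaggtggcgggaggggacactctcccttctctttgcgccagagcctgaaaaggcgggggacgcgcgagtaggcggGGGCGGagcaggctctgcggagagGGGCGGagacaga
Unc13a: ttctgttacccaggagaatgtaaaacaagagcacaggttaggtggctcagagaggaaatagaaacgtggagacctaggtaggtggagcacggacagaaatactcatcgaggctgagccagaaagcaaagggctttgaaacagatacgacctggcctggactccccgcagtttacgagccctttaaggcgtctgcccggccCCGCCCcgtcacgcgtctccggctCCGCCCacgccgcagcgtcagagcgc
Each of these windows held 2 GC boxes, which begin 37 and 13 bases before the start in Syn2 and 50 and 26 bases before it in Unc13a. The GC content was 61.2% for Syn2 and 58.0% for Unc13a, where the median over 32851 promoter windows was 52.4%. At least 1 GC box was found in 32.7% of all those windows. The short form of the cAMP response element (TGACG or CGTCA), present in 17.8% of all windows, was found for Unc13a and not in these letters for Syn2. The CAAT box (CCAAT or ATTGG), present in 33.8%, was found in neither of the windows shown, and a match listed for Syn2 lies in its other window, 104092 bases from the deposited start. Of the members, 6 had a window in the table (8 windows in all), and Snap25 and Vamp2 had none. A GC box was found in 5 of those 8 windows. The other motifs searched were the TATA box (TATAAA, 12.4% of windows, in 0 member windows), the full response element (TGACGTCA, 1.55%, Syn1 alone), and the left and right parts of the neuron-restrictive element (TCAGCACC, 1.32%, Syn1 alone, and GGACAGCG, 0.992%, in 0 member windows).

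Gene expression was deposited as FPKM, which scales a gene's fragments by its length and by the size of the library, in an earlier table of the Con and HMD libraries and a later table of all 9. The diet comparison (HMD against Con) used the earlier table and both comparisons of Bet+HMD used the later one, so the HMD and Con libraries also enter more than 1 comparison. Each library had 16031464 to 18566712 reads in genes. The Bet+HMD libraries had reads at more genes than the other 6 in the later table (25315 to 25663 against 20816 to 23272) and a smaller FPKM sum (249135 to 258514 against 288439 to 307899). Their replicates also differed less from each other, as a chi-square over genes divided by its degrees of freedom was 3.10 to 4.47 there and 12.8 to 46.4 within Con and HMD. Any difference in how these libraries were handled and the betaine group cannot be told apart. The labels give separate samples and do not say that each came from a separate animal, so p-values measure the spread between these samples. Neuron markers were detected in every library. The thalamus list was higher in every HMD library (mean log2(FPKM + 1) of 2.15 to 3.46) than in Con (1.72 to 1.80) or Bet+HMD (1.86 to 1.92). All 8 thalamus markers tested had higher means in HMD than in Con, and lower means in Bet+HMD than in HMD. HMD 1 stood highest for this list (3.46) and for the medial habenula list (2.50, against 0.98 to 1.21 in the other 8). The part of both lists in the results was not tested.

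All 8 members were strongly expressed. In Con, Snap25 had the highest mean at 292 ± 40.5 FPKM (SD, n = 3), followed by Vamp2 at 259 ± 50.8, Syt1 at 207 ± 27.2, Syn1 at 157 ± 51.9, Syn2 at 109.9 ± 14.2, Syp at 106.9 ± 37.0, Stx1a at 27.9 ± 3.05 and Unc13a at 20.8 ± 1.88. Each mean exceeded that of at least 80.0% of the genes at or above 1 FPKM in every group. The ranges of neighbours overlapped down to Syp, while Stx1a and Unc13a lay below the other 6 genes and apart from each other. In Bet+HMD the order of 2 neighbouring pairs differed. Syp (88.2 ± 7.25) stood above Syn2 (70.7 ± 1.58) without overlap, and Unc13a (29.6 ± 1.11) and Stx1a (28.8 ± 0.581) overlapped. The read numbers behind these values ran from 742 for Stx1a in HMD 2 to 37488 for Snap25 in HMD 2 in the later table.

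**Figure D1:**
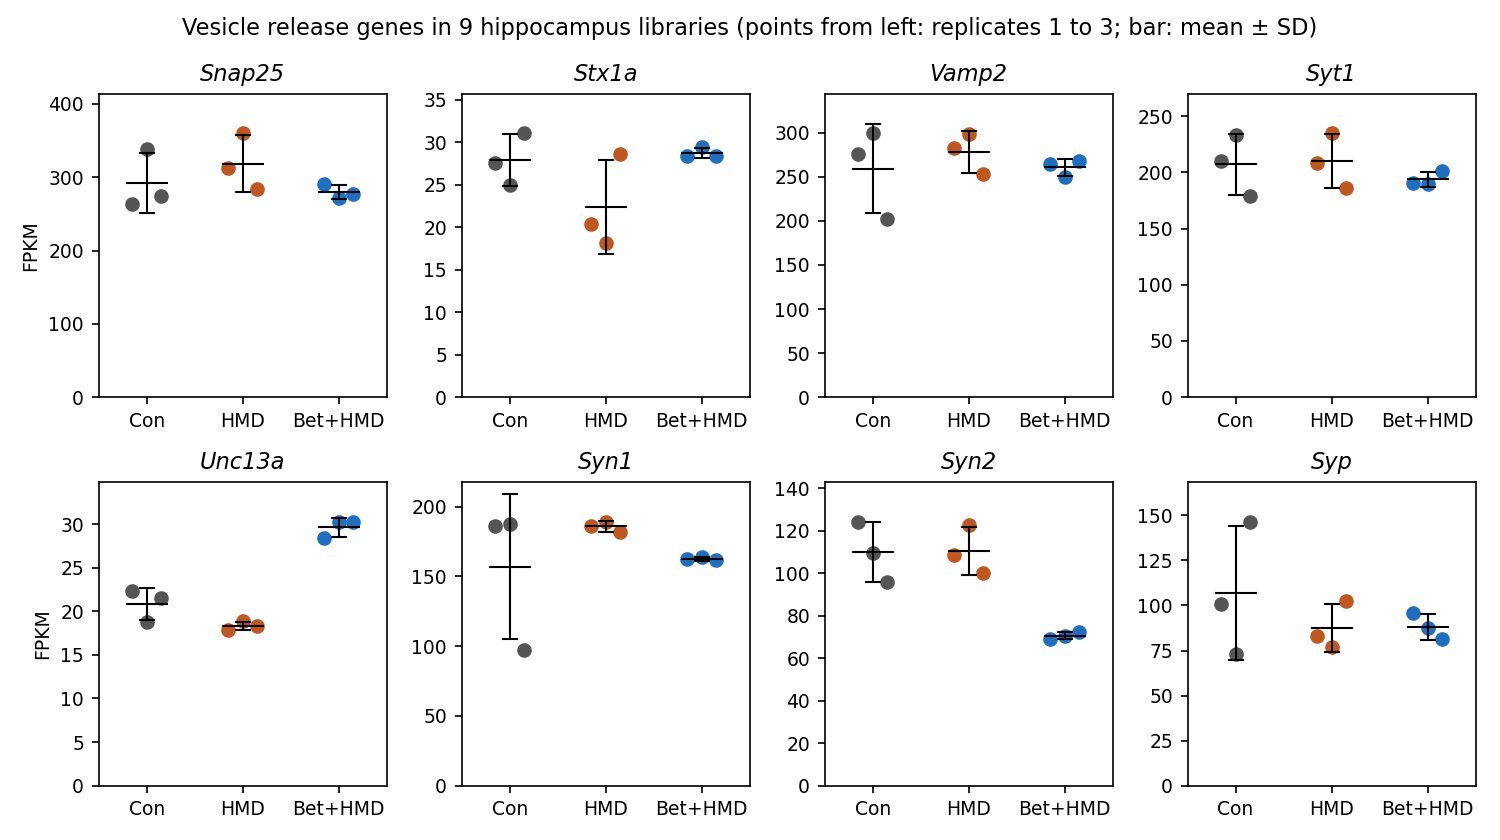
FPKM of the 8 release genes in the 9 libraries of the later table, 1 panel per gene with an axis from 0; points are libraries and bars the group mean ± SD (n = 3). Syn2 sits between 69.2 and 72.4 FPKM in Bet+HMD, below all 6 other libraries, and Unc13a between 28.4 and 30.3, above all of them, while Con 3 stands apart for Syn1 (97.1) and Syp (147).

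Of the SNARE genes, Stx1a stood far below both partners in all 9 libraries, and Vamp2 was above Snap25 in Con 1. Snap25 (ENSMUSG00000027273, chromosome 2, 136713453 to 136782428, + strand) had 263, 338 and 275 FPKM in Con 1, 2 and 3, 312, 360 and 284 in HMD, and 290, 272 and 277 in Bet+HMD. The groups overlapped, and the second library of Con and of HMD was the highest of its group. Vamp2 (ENSMUSG00000020894, chromosome 11, 69088490 to 69092384, + strand) had 276, 299.6 and 202 FPKM in Con, 283, 299 and 253 in HMD, and 264, 250.1 and 268 in Bet+HMD. Con 3 was the lowest of the 9 libraries for Vamp2, and the groups overlapped. Stx1a (ENSMUSG00000007207, chromosome 5, 135023482 to 135051100, + strand) had 27.5, 25.02 and 31.1 FPKM in Con, 20.4, 18.2 and 28.7 in HMD, and 28.4, 29.4 and 28.4 in Bet+HMD. HMD 1 and HMD 2 were the lowest for Stx1a, and HMD 3 lay among the libraries of the other groups. The listed overlap of Snap25 was a pseudogene without reads, and no gene overlapped Stx1a or Vamp2.

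The calcium sensor gene Syt1 (ENSMUSG00000035864, chromosome 10, 108497650 to 109010982, - strand) had 209.7, 233 and 179 FPKM in Con, 208, 235 and 186 in HMD, and 190.2, 189.8 and 201 in Bet+HMD. The Bet+HMD libraries lay inside the range of both other groups. Unc13a (ENSMUSG00000034799, chromosome 8, 71624417 to 71671757, - strand) had 22.3, 18.7 and 21.5 FPKM in Con, 17.9, 18.9 and 18.3 in HMD, and 28.4, 30.3 and 30.3 in Bet+HMD. Every Bet+HMD library was above every other library, and Con 2 lay among the HMD libraries. Unc13a shares 495 bases with Colgalt1 on the opposite strand (6.17 to 13.4 FPKM), and the use of strand in counting is not stated in the sources used here, so a share of its reads is uncertain.

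The synapsin genes differed in how they varied. Syn1 (ENSMUSG00000037217, chromosome X, 20860511 to 20921004, - strand) had 186, 188 and 97.1 FPKM in Con, 186, 189 and 182 in HMD, and 162, 164 and 161 in Bet+HMD. Con 3 was far below the other 8 libraries, and those of HMD lay above those of Bet+HMD. Syn2 (ENSMUSG00000009394, chromosome 6, 115134902 to 115282006, + strand) had 124, 109 and 96.0 FPKM in Con, 109, 123 and 100.1 in HMD, and 69.2, 70.5 and 72.4 in Bet+HMD. Con and HMD overlapped, and the Bet+HMD libraries lay below all of them. Syp (ENSMUSG00000031144, chromosome X, 7638471 to 7653256, + strand) had 100.8, 73.3 and 147 FPKM in Con, 83.2, 76.8 and 103 in HMD, and 95.9, 87.3 and 81.5 in Bet+HMD. Syp was highest in Con 3 and lowest in Con 2, so the Con range enclosed both other groups. Syn1 shares 4570 bases with Timp1 on the opposite strand (at most 1.75 FPKM), Syn2 shares 10314 bases with Timp4 on the opposite strand (6.20 to 9.88 FPKM) and more with Gm17482 on the same strand (at most 4.797 FPKM), and Syp shares 2151 bases with the antisense gene Gm14703 (at most 1.83 FPKM). These values are uncertain to that extent.

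The first comparison asked whether the high-methionine diet alone was accompanied by a change in the release genes. In the earlier table, none of the 8 members passed the test in HMD against Con, and neither did any gene (limma on log2(FPKM + 1), Benjamini-Hochberg adjusted p under 0.05; 0% of 12989 genes, and 0% with the fold threshold of 1 on the log2 scale as well). At an unadjusted p under 0.05 there were 0 members, beside 592 genes or 4.56% of all, and limma voom on the recovered reads also called 0 genes. The log2 fold changes were 0.13 for Snap25, 0.12 for Vamp2, -0.30 for Stx1a, 0.02 for Syt1, -0.16 for Unc13a, 0.31 for Syn1, 0.02 for Syn2 and -0.23 for Syp, with a median of 0.02 beside -0.0038 for all genes. The 95% intervals still allowed sizeable differences. That of Stx1a ran from -0.71 to 0.11, that of Syn1 from -0.27 to 0.90 and that of Syp from -0.78 to 0.33, while that of Unc13a ran from -0.41 to 0.08. Bulk RNA of a tissue cannot tell fewer neurons from less RNA per neuron, here or in the comparisons that follow.

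One library decided several of these values. Without Con 3, in which Syn1 was at 94.4 FPKM against 182 and 184 in Con 1 and Con 2, the log2 fold change of Syn1 went from 0.31 to -0.01 and that of Syp from -0.23 to 0.01. Vamp2 went to -0.05, Syt1 to -0.08 and Syn2 to -0.08. Con 3 was at least 1.5-fold above both other Con libraries at 5.82% of the genes tested and below both by that factor at 2.37%. Its choroid plexus markers summed to the highest value of the Con libraries (771, 2574 and 3210 FPKM in Con 1, 2 and 3 of the later table). Con 3 was also the highest library there for oligodendrocyte markers (mean log2(FPKM + 1) of 6.97, next 6.83 in HMD 1). The same held for microglia markers (4.12, next 3.91 in Con 1). The part of these 3 marker lists in the values of Con 3 was not tested. Unc13a was the 1 member whose groups did not overlap, beside 9.37% of all genes, with 18.6, 20.9 and a highest value of 22.003 FPKM in Con and 17.8 to 18.5 in HMD. The gap between its lowest Con and highest HMD library was within rounding, and in the later table the groups overlapped.

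The second comparison asked what accompanied betaine after the diet. In Bet+HMD against HMD, Unc13a rose 1.62-fold in group means, from 18.3 ± 0.488 to 29.6 ± 1.11 FPKM (log2 fold change 0.66, SE 0.07, limma adjusted p 0.000317). Syn2 fell from 110.4 ± 11.4 to 70.7 ± 1.58 FPKM, 0.640 times the HMD mean (log2 fold change -0.63, SE 0.09, limma adjusted p 0.00115). Syn1 fell in the deposited FPKM from 186 ± 3.82 to 163 ± 1.28, a log2 fold change of -0.19 (SE 0.06, limma adjusted p 0.0354). So 3 of 8 members passed the test, 1 higher and 2 lower, beside 48.3% of all 13672 genes tested, of which 22.8% were higher and 25.5% lower. The share of members called was below that of all genes, and 0 members had a log2 change of at least 1, beside 8.93%. The same 3 were the members without overlap, beside 60.1% of all genes. The median over the members was -0.10, beside -0.03 over all genes.

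Unc13a was called in each of the 9 other settings tried (log2 fold change 0.66 to 0.88) and without any 1 of the 6 libraries. Syn2 kept its direction in all of these, with -0.44 in TPM (limma adjusted p 0.00571), and missed the threshold under quantile normalization alone, at -0.25 (adjusted p 0.0537). The call of Syn1 depended on the scaling. It was 0.01 in TPM (adjusted p 0.927), 0.22 and past the threshold as higher under quantile normalization (adjusted p 0.0183), and -0.10 with voom on the recovered reads (adjusted p 0.192). TPM moved the median of all genes from -0.03 to 0.16. Relative to that median, Syn2 lay at -0.60, Unc13a at 0.72 and Syn1 at -0.15 in TPM, beside -0.61, 0.69 and -0.17 in the deposited FPKM. TPM multiplies each library by 1 factor, so these values had to lie close together. Under quantile normalization, relative to its own median of all genes, they were -0.20, 0.90 and 0.26.

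The other members did not pass the test. Stx1a had 22.4 ± 5.53 FPKM in HMD and 28.8 ± 0.581 in Bet+HMD, a log2 fold change of 0.37 (95% interval 0.01 to 0.73, limma adjusted p 0.0822). It passed in TPM (0.58, adjusted p 0.0212), under quantile normalization (0.57), with voom (0.47) and without HMD 3 (0.55, adjusted p 0.00230), the 1 HMD library in which it was not low. Snap25 had -0.18 (-0.41 to 0.05), Vamp2 -0.09 (-0.29 to 0.10), Syt1 -0.11 (-0.33 to 0.11) and Syp 0.02 (-0.26 to 0.30). Without HMD 3, Snap25 had -0.26 and also passed the test (adjusted p 0.0469). Under quantile normalization, Vamp2 (0.31), Syt1 (0.29) and Syp (0.39) passed as higher, so no direction is given for these genes.

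The third comparison set the betaine group against the standard diet and shared its Bet+HMD libraries with the second. Unc13a rose from 20.8 ± 1.88 to 29.6 ± 1.11 FPKM (log2 fold change 0.49, SE 0.09, limma adjusted p 0.00660), and Syn2 fell from 109.9 ± 14.2 to 70.7 ± 1.58 FPKM (-0.62, SE 0.11, adjusted p 0.00519). These 2 of 8 members were past the threshold, beside 39.7% of 13643 genes (19.4% higher and 20.4% lower), and 0 with the fold threshold, beside 8.74%. They were also the members without overlap, beside 55.1% of all genes. The other 6 had log2 fold changes of -0.22 for Syp to 0.11 for Syn1, and the median was -0.01 beside -0.04 for all genes. Under quantile normalization Snap25 (0.39, adjusted p 0.0256) and Vamp2 (0.46, adjusted p 0.0489) passed as higher. Without Con 3, Syn1 went to -0.20 and passed the test (adjusted p 0.0486), and Syp went to 0.03. Unc13a stayed past the threshold in all 15 other fits, of which 6 left out a library each. Syn2 stayed past it in 14 of them and had -0.20 under quantile normalization (adjusted p 0.239).

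**Figure D2:**
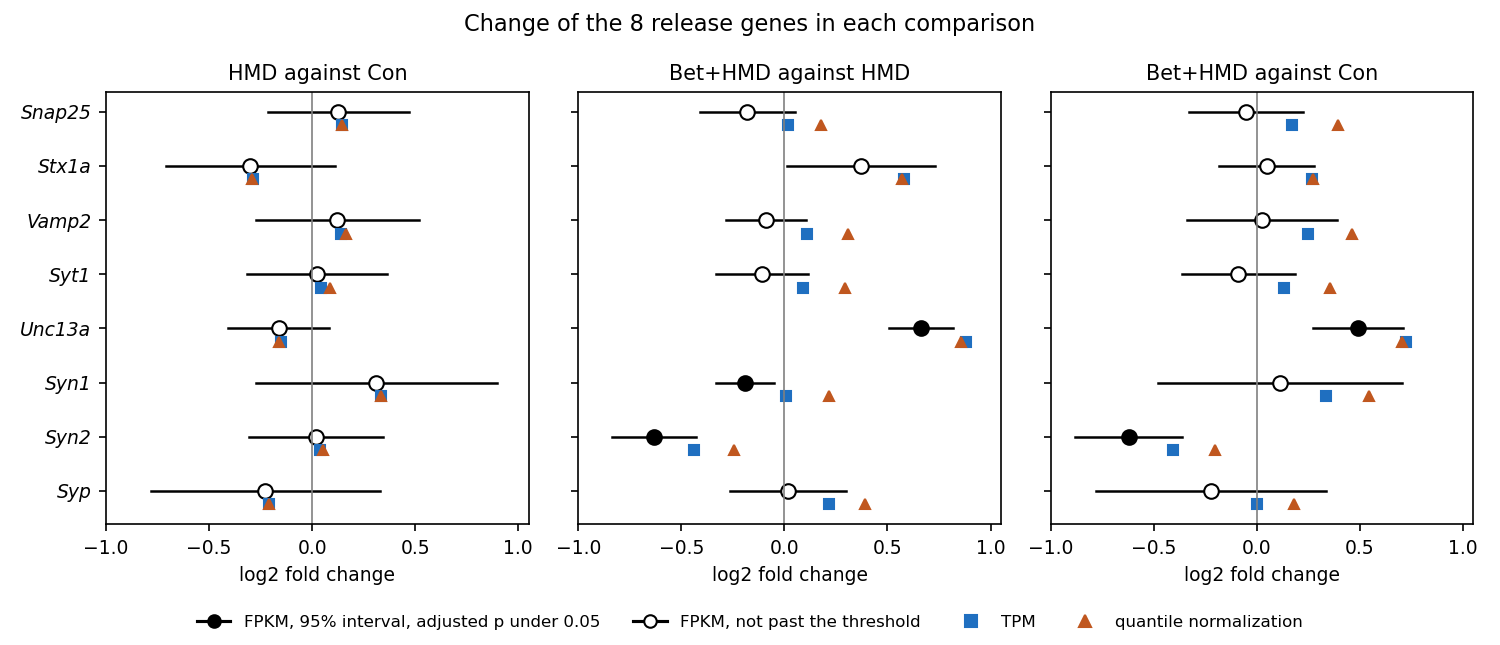
Log2 fold change of each member in the 3 comparisons, with limma 95% intervals on deposited FPKM (filled circles for adjusted p under 0.05) and the estimates in TPM (squares) and under quantile normalization (triangles). Unc13a lies above 0 and Syn2 below 0 under each scaling in both comparisons of Bet+HMD, whereas Syn1 against HMD goes from -0.19 to 0.01 and 0.22.

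Cell type markers differed in the Bet+HMD group as well. Their counts against HMD stand beside 48.3% of all genes called, 22.8% higher and 25.5% lower. The neuron list had a mean log2(FPKM + 1) of 5.47 ± 0.077 for Con, 5.47 ± 0.082 for HMD and 5.56 ± 0.006 for Bet+HMD, with 4 of 10 markers higher and 3 lower against HMD. The 8 members stood above that list by 1.13 to 1.38 in Con, 1.18 to 1.37 in HMD and 1.135 to 1.143 in Bet+HMD. Oligodendrocyte markers had 6.61 ± 0.349 for Con, 6.64 ± 0.186 for HMD and 6.22 ± 0.023 for Bet+HMD, with 5 of 8 lower and 0 higher against HMD, and microglia markers had 4 of 8 lower. Red blood cell markers had 3.64 to 3.82 in Con, 4.12 to 4.87 in HMD and 3.15 to 3.54 in Bet+HMD, and astrocyte markers 5.96 to 5.98, 5.92 to 5.95 and 5.75 to 5.78. On this FPKM scale both lists were lower in Bet+HMD than in either other group without overlap, with 2 of 5 and 2 of 8 markers called lower against HMD. As a share of each library's FPKM sum, the astrocyte list was instead higher in Bet+HMD (0.295% to 0.307%) than in Con (0.266% to 0.284%) or HMD (0.259% to 0.282%). The oligodendrocyte share in Bet+HMD (0.334% to 0.348%) lay within the ranges of Con (0.282% to 0.470%) and HMD (0.322% to 0.426%). The red blood cell share in Bet+HMD (0.029% to 0.047%) overlapped Con (0.032% to 0.051%) and lay below HMD (0.051% to 0.081%). The microglia share in Bet+HMD (0.0399% to 0.0424%) overlapped HMD (0.0406% to 0.0487%) and lay below Con (0.0449% to 0.0631%). Against Con, 2 red blood cell markers rose and 3 fell. Of these, 1 was called in each direction, beside 19.4% of all genes called higher and 20.4% lower. Hba-a2 went from a mean of 11.4 FPKM in Con to 1.54 in Bet+HMD, and Hbb-bt from 6.37 to 8.28. No marker of these 5 lists was at 0 in any library. Their part in the changes of Syn2 and Unc13a was not tested. The change between Bet+HMD and HMD also ran with gene length. With the protein-coding genes split into 5 equal bins by deposited length, the median log2 fold change was -0.29, -0.14, -0.07, 0.01 and 0.08 from the shortest to the longest. Unc13a (12623 bases) was in the bin of the longest genes, where 29.9% of genes were called higher and 11.3% lower. Syn2 (7031 bases) was in the bin before it, where 20.6% were called lower and 25.6% higher. Against Con the medians of such bins ran from -0.36 for the shortest genes to 0.11 for the longest. The part of length in the changes of Unc13a and Syn2 was not tested.

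Ratios between a member and a related gene were taken within each library, since they do not move when a whole library is multiplied by 1 factor. The synapsin ratio Syn1/Syn2 was 1.496, 1.72 and 1.01 in Con, 1.72, 1.54 and 1.82 in HMD, and 2.35, 2.33 and 2.23 in Bet+HMD, so the Bet+HMD libraries were above all others. Its log2 difference from HMD was 0.45 and from Con 0.74. Unc13b encodes a second priming protein of the same family and was far lower than Unc13a. The ratio Unc13a/Unc13b was 14.1, 13.1 and 10.8 in Con, 10.7, 12.5 and 13.7 in HMD, and 7.73, 7.57 and 7.52 in Bet+HMD. The ratio fell below all other libraries although Unc13a was highest there, and Unc13b itself had 3.67 to 4.03 FPKM in Bet+HMD against 1.34 to 1.98 in the other 6 libraries. On the log2(FPKM + 1) scale, the change against HMD was 0.66 for Unc13a and 0.97 for Unc13b. Under quantile normalization these were 0.86 and 0.80, so Unc13b no longer rose more.

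Snap25 over Snap23, a SNARE used in many cell types outside fast release, was 85.4, 80.1 and 93.8 in Con, 91.7, 100.4 and 96.5 in HMD, and 42.8, 48.5 and 36.6 in Bet+HMD. The Bet+HMD libraries lay below all others, and Snap23 itself had 5.61 to 7.57 FPKM there against 2.93 to 4.23. Syt1 over Syt2, another fast calcium sensor gene, was 81.4, 88.0 and 63.5 in Con, 45.2, 82.1 and 43.6 in HMD, and 28.7, 29.3 and 33.2 in Bet+HMD. The ratio was again lowest in Bet+HMD, and HMD 2 lay with Con. Syp over Synpr, which encodes the related vesicle protein synaptoporin, was 5.82, 3.85 and 9.35 in Con, 5.31, 4.0 and 5.92 in HMD, and 10.5, 10.3 and 7.83 in Bet+HMD. This ratio was higher in Bet+HMD than in HMD without overlap and overlapped Con through Con 3.

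Vamp2 over Vamp1 was 29.3, 30.0 and 17.9 in Con, 17.4, 23.7 and 18.9 in HMD, and 27.0, 24.6 and 24.8 in Bet+HMD. Bet+HMD lay above HMD without overlap for this ratio and within the range of Con. Of the 6 pairs given here, the ratios did not overlap in 6 against HMD and in 4 against Con, and overlapped in all 6 in HMD against Con. Among single genes, 60.1% did not overlap against HMD, 55.1% against Con and 9.37% in HMD against Con. No such share was computed for ratios of other gene pairs. With 3 against 3 libraries the two-sided exact permutation p cannot go below 0.1, and it was 0.1 for each pair without overlap (Benjamini-Hochberg adjusted 0.1 against HMD and 0.15 against Con), so none passed. The smallest exact permutation p in HMD against Con was 0.2 (adjusted 0.45).

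**Figure D3:**
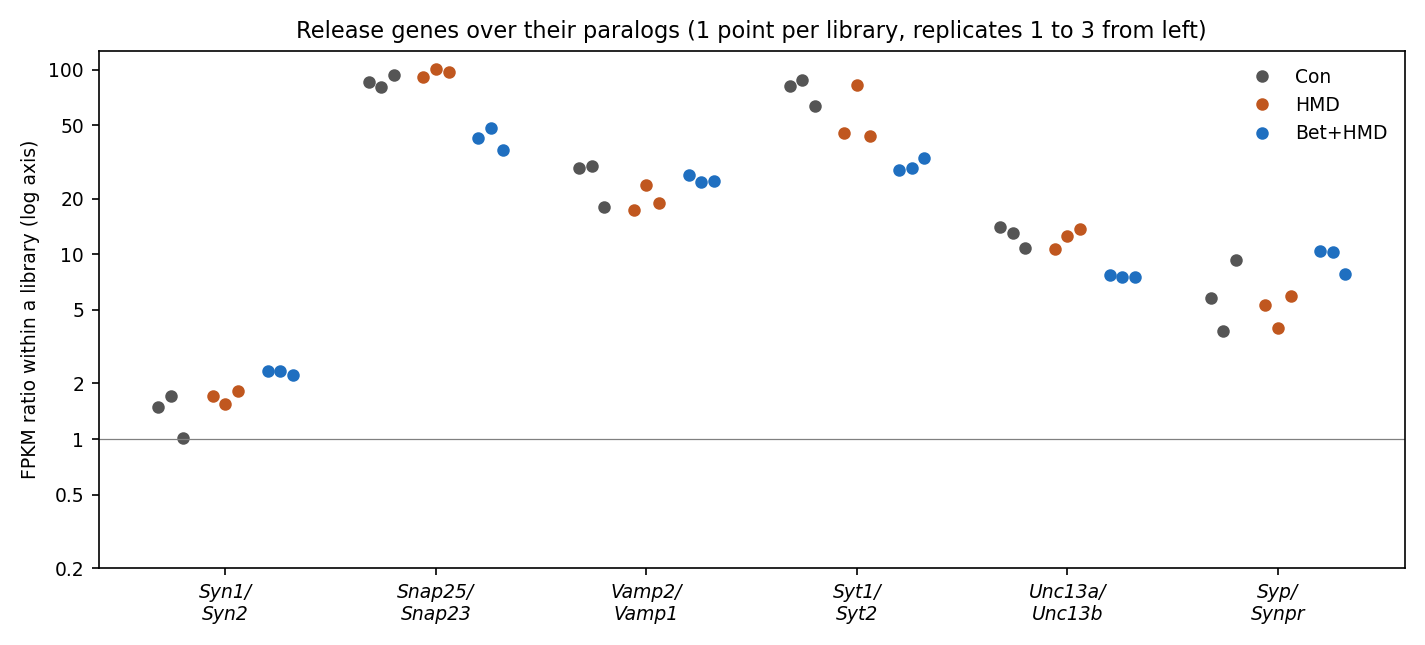
FPKM ratio of a member to a related gene within each of the 9 libraries of the later table, on a log axis; 1 point is 1 library. The Bet+HMD points lie above all others for Syn1/Syn2 (2.23 to 2.35) and below all others for Snap25/Snap23 (36.6 to 48.5), Syt1/Syt2 (28.7 to 33.2) and Unc13a/Unc13b (7.52 to 7.73).

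The members act within a larger vesicle cycle, for which 97 further genes were listed by role, 96 of them with a mean of at least 1 FPKM. In HMD against Con, 0 of 96 passed the test and 3 had an unadjusted p under 0.05. For each direction, values are given for the 3 genes of smallest p. Vamp1, a vesicle SNARE gene related to Vamp2, had 9.33, 9.94 and 11.0 FPKM in Con and 16.2, 12.3 and 13.3 in HMD (log2 fold change 0.42, limma adjusted p 0.975). Syt2 (0.39) and Unc13c (0.44), another Munc13 gene, had higher means in HMD, and Rims4 (-0.26), Lin7b (-0.40), both of the active zone, and Rab3d (-0.20) had lower ones, all at an adjusted p of 0.980. HMD 1, the library highest in thalamus markers, was the highest of the 6 for Vamp1, Syt2 and Unc13c.

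In Bet+HMD against HMD, 52 of the 96 pathway genes passed the test, 16 higher and 36 lower. That is 54.2% of the list beside 48.3% of all genes. The split depended on the scaling: in TPM 47 passed, of which 30 were higher and 17 lower, and under quantile normalization 42 passed, 24 higher and 18 lower. Over all 13672 genes, 3118 of 6607 calls were higher in FPKM, 4496 of 6470 in TPM and 3041 of 6460 under quantile normalization. The counts by role that follow stand beside these. The median of the 96 pathway genes minus that of all genes was -0.14 in both FPKM and TPM and 0.08 under quantile normalization.

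Genes of endocytosis and recycling, which retrieve vesicle membrane after release, had 14 of 24 lower and 1 higher in FPKM. In TPM 9 were lower and 5 higher, and under quantile normalization 4 were lower and 3 higher. The list median minus that of all genes was -0.36, -0.35 and -0.02 in the same order. Ap2s1, the small subunit of the clathrin adaptor AP-2, fell from 60.1, 43.5 and 68.5 FPKM to 28.4, 28.1 and 21.5 (log2 fold change -1.10, limma adjusted p 0.00249). Clta, a clathrin light chain gene, fell from 94.7, 82.2 and 96.8 to 45.4, 45.5 and 39.0 (-1.06, adjusted p 0.000235). Ap2a2, a large AP-2 subunit gene, had a log2 fold change of -0.76 and fell as well. The Bet+HMD libraries lay below all HMD libraries for each of these genes. Dnm2, a dynamin gene expressed in many tissues, was the 1 gene of this list called higher in FPKM (0.63, limma adjusted p 0.00413). Dnm1, the neuronal dynamin gene, fell in FPKM (-0.42, adjusted p 0.00197) and in TPM (-0.22) and stood at 0.05 under quantile normalization.

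Vesicle membrane genes had 8 of 13 lower and 0 higher in FPKM. In TPM 3 were lower and 1 higher, and under quantile normalization 5 were lower and 1 higher. Their median minus that of all genes was -0.34, -0.33 and 0.05 in the same order. Synpr fell from 15.7, 19.2 and 17.4 FPKM in HMD to 9.16, 8.51 and 10.4 in Bet+HMD (log2 fold change -0.83, limma adjusted p 0.000748). Syngr3 (-0.68), which encodes a synaptogyrin, Atp6v1a (-0.75), a subunit of the proton pump that fills vesicles, and Slc17a7 (-0.42), the vesicular glutamate transporter VGLUT1, were also called lower. Under quantile normalization Slc17a7 stood at 0.01, while Syngr3 and Atp6v1a were called lower under both other scalings. Syn3, the third synapsin gene, was the 1 pathway gene under 1 FPKM and was not tested.

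The active zone and priming list went the other way, with 7 of 21 higher and 2 lower in FPKM. In TPM 13 were higher and 1 lower, and under quantile normalization 10 were higher and 1 lower. The median of this list minus that of all genes was 0.17, 0.18 and 0.22 in the same order. Rimbp2, which links calcium channels to the release site, rose from 10.9, 11.3 and 11.8 FPKM to 23.9, 24.7 and 23.7 (log2 fold change 1.02, limma adjusted p 7.08e-05). Unc13b rose by 0.97 on the log2 scale (adjusted p 0.000310), beside the 0.66 of Unc13a. The calcium channel genes Cacna1a (0.60), Cacna1b (0.32) and Cacna1e (0.69), Rims4 (0.64) and Pclo (0.52), the gene of the scaffold protein piccolo, were the others called higher. Cadps2 (-0.50), a priming gene of dense-core vesicles, and Erc2 (-0.43) were called lower. The genes named as higher here were called higher under all 3 scalings, as Cadps2 was lower, and Erc2 passed in FPKM alone.

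Among SNAREs and their partners, 4 of 18 were higher and 9 lower in FPKM, 6 higher and 3 lower in TPM, and 4 higher and 3 lower under quantile normalization. Stx3, a syntaxin gene used in many tissues, rose from 4.76, 4.55 and 4.65 FPKM to 10.6, 10.6 and 10.3 (log2 fold change 1.02, limma adjusted p 7.07e-05). Stx2 (0.79) and Snap23 (0.82) rose, and Snap47 fell from 107 ± 4.996 to 58.6 ± 5.68 FPKM (-0.87). Nsf, the gene of the ATPase that takes SNARE complexes apart, was called lower in FPKM (-0.28, adjusted p 0.0217). It did not pass in TPM and stood at 0.13 under quantile normalization. Of 10 calcium sensor genes, Doc2a (0.78), Syt2 (0.61) and Syt7 (0.50) rose and Syt3 (-0.28) fell in FPKM. That list had 4 higher and 0 lower in TPM and 4 higher and 4 lower under quantile normalization. Of 10 genes of the Rab cycle, Rab3a (-0.59), which tethers vesicles, fell and Rph3a (0.28) rose, and the list had 1 higher and 2 lower in FPKM, 1 and 1 in TPM, and 2 and 1 under quantile normalization. Syt3 did not pass in TPM.

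The 10 pathway genes named by size (Stx3, Rimbp2, Unc13b, Snap23, Stx2, Ap2s1, Clta, Snap47, Synpr and Ap2a2) kept their direction and their call in every alternative run on them. Of these, Ap2a2, Rimbp2, Snap47, Synpr and Unc13b overlap other genes, the highest of which reached 5.76 FPKM (Jmjd4, on the strand opposite Snap47). None of the alternatives adjusted for gene length. Ap2s1 (1472 bases) and Clta (1800) were in the bin of the shortest genes, where 41.9% were called lower and 9.9% higher. Unc13b (22746) and Rimbp2 (7935), which rose, and Synpr (9439), which fell, were in that of the longest. The part of length in these changes was not tested.

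Against Con, 43 of 96 pathway genes passed in FPKM (44.8%, beside 39.7% of all genes), 19 higher and 24 lower. In TPM 28 were higher and 9 lower. Over all 13643 genes, 2645 of 5422 calls were higher in FPKM, 3980 of 5412 in TPM and 2620 of 5296 under quantile normalization. The active zone list had 9 of 21 higher and 2 lower in FPKM, 13 and 1 in TPM, and 12 and 1 under quantile normalization. Endocytosis had 1 higher and 10 lower of 24 in FPKM, 3 and 4 in TPM, and 2 and 2 under quantile normalization. Vesicle membrane genes had 1 higher and 7 lower of 13 in FPKM, 2 and 3 in TPM, and 2 and 2 under quantile normalization. The largest changes by the same rule were those of Stx3 (1.18), Syt2 (1.00), Rimbp2 (0.95), Unc13b (0.88) and Snap23 (0.80) among the genes that rose, and of Ap2s1 (-1.19), Clta (-0.98), Snap47 (-0.82), Synpr (-0.82) and Atp6v1a (-0.69) among those that fell. Of these 10, Atp6v1a lost its call under quantile normalization (-0.27). The count for the pathway was 28 without Bet+HMD 1 and also 28 without Bet+HMD 2.

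**Figure D4:**
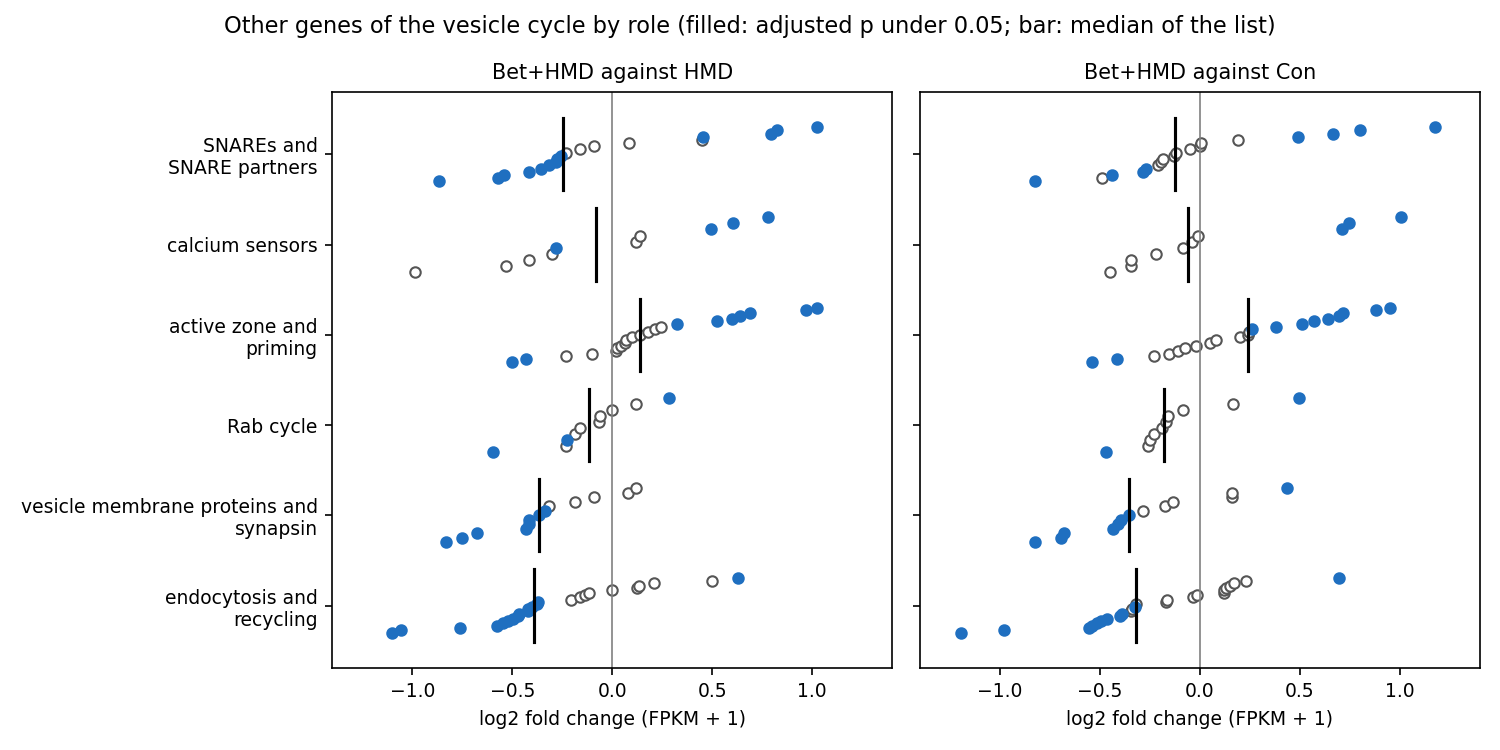
Log2 fold change on the log2(FPKM + 1) scale of the 96 other vesicle cycle genes tested, by role, for Bet+HMD against HMD (left) and Con (right); filled points had a limma adjusted p under 0.05 and bars are list medians. Against HMD the median is -0.39 for endocytosis, -0.37 for vesicle membrane genes and 0.14 for the active zone. In TPM these are -0.19, -0.17 and 0.34, and the median of all genes tested moves from -0.03 in FPKM to 0.16 in TPM.

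The profile of the members over the 9 libraries was compared with that of every other gene by the root mean square difference of centred log2(FPKM + 1) values. The mean profile of the 8 members was nearly flat, from -0.07 in Con 3 to 0.09 in Con 1. The 5 genes nearest to it were Tbc1d1 (0.031), Nars2 (0.031), Caprin1 (0.033), Epb41l1 (0.037) and Arid1b (0.038), where the median over 13456 genes was 0.227. Among the members themselves, Syt1 (0.106) and Vamp2 (0.135) lay nearest to the mean and Syp (0.304) and Unc13a (0.303) farthest. Stx1a (0.253), Syn1 (0.256), Syn2 (0.294), Unc13a and Syp lay farther from it than that median. The nearest genes are thus near the flat mean and not near each member. Vamp2 and Syt1 were the closest pair, at 0.081, followed by Snap25 and Syt1 at 0.091.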

How the data were processed

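Ribosomal RNA was depleted from total hippocampus RNA and stranded paired-end libraries were sequenced. Per the submitters' processing notes, reads were aligned with HISAT2 2.1.0 to mm10 and counted per gene with featureCounts 1.5.0-p3; the study's methods name other versions of these tools. The authors deposited FPKM in 2 tables, which scale a gene's fragments by its length (given in bases, another unit, used unchanged) and by a scaled library size. Columns named COL were read as Con, which is inferred from the group left over. Multiplying back gave whole reads (tolerance 0.05 reads) for 100% of values. Floors of 3 reads and other counting limits cover counting error only.

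The members, gene lists, marker lists and tests were chosen with earlier results of these data known, and no list was tested as a set. Differences were tested with limma 3.58.1 (R 4.3.3, empirical Bayes with intensity trend, two-sided) on log2(FPKM + 1) over genes with a mean of at least 1 FPKM, within 1 table, and adjusted over all genes tested. A fold change on this scale understates that of low genes. Scripts were tested on simulated data. Named pathway genes are, per comparison and direction, the 5 largest changes past an adjusted p of 0.05, or the 3 smallest p where none passed; other pathway genes given in the text were chosen after their values were seen. Genes nearest to the mean profile of the members are the 5 with the smallest difference from it. Ratios were tested with two-sided exact permutation tests (scipy 1.17.1) over samples. A further ratio and some pathway genes are not reported here; the genes remain in the counts of their lists. Alternatives were a pseudocount of 0.1, no filter, a filter at 5 FPKM, TPM, median-ratio centring, quantile normalization, all 3 groups in one fit, limma voom on recovered reads, a replicate block, the later table, and leaving out each sample. Promoter windows are from RefSeq, GRCm38.p6, and gene positions from the deposited tables. Of the listed gene IDs with a GENCODE M21 entry, 98.3% had the same position.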

Additional observations from a re-analysis of the deposited data

How the results depend on the processing

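In Bet+HMD against HMD, TPM gave 0.019 for Snap25, 0.11 for Vamp2, 0.090 for Syt1 and 0.0080 for Syn1, and quantile normalization gave 0.18, 0.31, 0.29 and 0.22, each opposite to the deposited FPKM. The median of the members was 0.10 in TPM, 0.30 under quantile normalization and -0.013 with voom, and quantile normalization called 6 members. Against Con, Snap25 was at 0.17 in TPM, 0.39 under quantile normalization and 0.028 with voom, Syt1 at 0.13 and 0.36 in TPM and under quantile normalization, and Syp at 0.18 under quantile normalization, with member medians of 0.21 and 0.37. The filter at 5 FPKM, which tests fewer genes, called 4166 genes against HMD and 3260 against Con. In HMD against Con, all 3 groups in one fit called 9 genes. Of all genes called higher or lower, the higher ones were 47.2% in FPKM, 69.5% in TPM and 57.3% with voom against HMD, and 48.8%, 73.5% and 59.0% against Con.

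Leaving out each library in turn gave 0 to 2 genes called in HMD against Con (2 without Con 2), with log2 fold changes from -0.051 to 0.24 for Vamp2, -0.080 to 0.12 for Syt1, -0.0058 to 0.47 for Syn1, -0.079 to 0.11 for Syn2, and -0.46 to 0.013 for Syp. The log2 ratios differed by -0.16 to 0.046 for Unc13a/Unc13b and -0.55 to 0.074 for Syp/Synpr. Against HMD it gave 2 to 5 members called, a member median of -0.17 to -0.054, and -0.070 to 0.14 for Syp. Against Con it gave 3302 to 6269 genes, 28 to 54 pathway genes, a member median of -0.12 to 0.029, and -0.12 to 0.057 for Snap25, -0.024 to 0.13 for Stx1a, -0.14 to 0.14 for Vamp2, -0.20 to 0.27 for Syn1, -0.46 to 0.033 for Syp and -0.22 to 0.15 for Vamp2/Vamp1. Leaving out Con 3 and HMD 1 together, chosen after seeing the data, gave a member median of -0.072 in HMD against Con, with -0.069 for Vamp2, -0.084 for Syt1, -0.012 for Syn1, -0.074 for Syn2 and 0.042 for Syp. The cause of these shifts was not tested.

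Same-numbered samples are not stated to share an animal, cage or day. The correlations of their deviations were -0.06, 0.35 and 0.32 for numbers 1, 2 and 3 in HMD against Con, 0.02, -0.10 and -0.15 in Bet+HMD against HMD, and -0.05, -0.09 and -0.18 in Bet+HMD against Con, so the numbers were not taken as pairs. With the replicate block, 0, 5615 and 3924 genes were called in these comparisons, 28 pathway genes were called against Con, and the call of Syn1 against HMD (adjusted p 0.135) was lost. The calls of Syn2 and Unc13a held. With 3 libraries a group, depth limits these results less than the spread between libraries does.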
